A study of Mus musculus with 6 samples.

Results

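The genes described here are 71 solute carriers that were well expressed in cartilage of the mouse cranial base, out of 24346 genes listed per library. Solute carriers (SLC) are the membrane proteins that move amino acids, ions, sugars, metals, vitamins and lipids into and out of cells and organelles. Members were chosen by name and by level: a symbol of the form Slc, a number, the letter a and a number, with a mean of at least 5 FPKM (sequenced fragments scaled by transcript length and library total) over all 6 libraries. Of 331 symbols of that form, 77 reached this mean. The rule also leaves out 8 named glucose, lactate, phosphate and sulfate transporters, 6 of which were above it. Families with another letter, such as the nucleotide sugar transporters Slc35b and Slc35d, are outside the rule. The mean level over all libraries is therefore what chose the members, and it is given below as a description. The difference between the groups was not part of the rule.

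Libraries came from chondrocyte layers of the spheno-occipital synchondrosis, a growth cartilage in the skull base (tissue label basilarcartilage), cut from frozen sections by laser microdissection. Library titles carry 1 of 2 codes, FP or RR, with 3 libraries each, numbered 11, 14 and 16. The series text speaks of flat and of round chondrocytes, but no label says which code is which, so the codes are kept. All 6 libraries share 1 genotype and treatment: Gli1CreERT2, a Cre recombinase that tamoxifen activates in cells using the Gli1 gene, a Tomato flox reporter, and tamoxifen at postnatal day 3. Both are a marking system that the compared groups have in common, and the age of the animals when tissue was taken is not stated. No label ties a library to a separate animal, so the p-values reflect only how much these samples vary, and that variation may be technical.

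Cartilage has no blood vessels inside it, so chondrocytes depend on diffusion through the matrix and on transporters at the membrane. Amino acid carriers feed the synthesis of collagen and proteoglycan. Zinc carriers of the SLC39 (import into the cytosol) and SLC30 (removal from it) families, and nucleotide sugar carriers of the Golgi, are needed in growth plate cartilage, and loss of several of them causes short stature or skeletal dysplasia in mice or humans. SLC25 carriers exchange metabolites across the inner mitochondrial membrane, with a few exceptions in other organelles.

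The captures carried the RNA of cartilage. Col2a1, the main cartilage collagen gene, was at 41112 to 74248 FPKM in FP libraries, against 38697 to 81873 in RR libraries. Other chondrocyte markers were less even: all 9 tested had a positive log2 change, with a median of 0.94. In 5 (55.6%) every FP library lay above every RR library, against 8.74% of all tested genes. Comp alone of the 9 was called, higher in FP. Calls are at an adjusted p under 0.05 in the test described below. Of 8 hypertrophic chondrocyte markers 6 (75%) were called higher in FP, against 0.554% of all tested genes, and all 8 had positive changes. Of 7 markers of the resting zone 6 (85.7%) were called lower, against 0.412%, and all 7 had negative changes. RNA of neighbouring tissues was present. The summed level of 12 skeletal muscle markers was 289, 164 and 285 FPKM in FP 11, FP 14 and FP 16, against 268, 38.9 and 51.3 FPKM in RR 11, RR 14 and RR 16. Of 8 osteoblast markers the sum ran from 268 to 793 FPKM in FP and from 124 to 1181 in RR, and of 11 macrophage and leukocyte markers from 59.1 to 112 in FP and from 30.1 to 424 in RR. The highest RR value of these 3 sums was that of RR library 11. The osteoblast list shares Sp7 and Ibsp with the hypertrophic list, so its sum does not separate these cell types. Ibsp was at 90.8 to 191 FPKM in FP, against 7.18 to 41.6 FPKM in RR. All 12 muscle markers had a positive log2 change and 0 were called. The part of such RNA in the results below was not tested. On a 2000 bp transcript 1 fragment was worth 0.127 to 0.252 FPKM in FP, against 0.174 to 0.296 FPKM in RR, provided the authors applied no scaling between libraries. A value of 5 FPKM on such a transcript thus rested on about 19.8 to 39.2 fragments in FP, against 16.9 to 28.7 in RR.

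Of the 71 solute carriers, 3 were higher in FP and 1 was lower. The sodium-calcium exchanger gene Slc8a3, the choline transporter-like gene Slc44a2 and the amino acid transporter gene Slc38a4 rose 6.05-fold, 3.52-fold and 4.85-fold by ratio of mean FPKM. The test was limma on log2(FPKM + 1), FP minus RR, over all 14789 genes whose mean reached 1 FPKM, and an adjusted p (Benjamini-Hochberg) under 0.05 counted as past the threshold. On this scale the change of low genes is understated. Library number was not part of this fit. The 3 that rose are 4.23% of the members, against 0.554% of all tested genes called higher in FP, and the 1 that fell is 1.41%, against 0.412% called lower. Slc38a4, 1 of the 3, reached the mean of 5 FPKM through the FP libraries alone, so its membership and its call draw on the same values. Members lie above the level at which most genes are tested, and among the 6914 tested genes whose mean reached 5 FPKM the shares were 1.16% higher and 0.767% lower. All 4 calls were lost when no filter on low genes was used (adjusted p = 0.0599 to 0.207) and when both libraries numbered 14 were left out (0.0874 to 0.337), in limma as above. In bulk samples, fewer cells of a type and less RNA per cell cannot be told apart.

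The other 67 members did not pass, with log2 changes from -1.12 to 2.197 and a median SE of 0.32 over all members. With library number in the fit as a fixed block, Slc38a2, Slc13a5 and Slc38a10 also passed. With a random block Slc7a1 and Slc39a14 passed in addition. An unadjusted p under 0.05 was reached by 19 of the 71 members (26.8%), against 10.3% of all tested genes and 13.6% of those with a mean of 5 FPKM or more. Most estimates lay above 0: 55 of the 71 members (77.5%) had a positive log2 change, against 51.6% of all tested genes and 64.9% of those with a mean of at least 5 FPKM. The median over the members was 0.24, against 0.02 over all tested genes and 0.14 over those of mean 5 or more. After quantile normalization of the libraries, 44 of the 71 were positive, with a median of 0.11. In 18 members every FP library lay above every RR library (25.4% of members, 8.74% of all tested genes), and in 5 every FP library lay below (7.04% of members, 7.28% of all tested genes). Among tested genes of mean 5 or more, these shares were 13.6% and 5.63%. Summed over the members, FP libraries 11, 14 and 16 held 1350, 1250 and 1293 FPKM, and RR libraries 11, 14 and 16 held 885, 768 and 1116 FPKM. The lowest of the 6 libraries was RR 14, also the library with the fewest estimated fragments, for 36 of the 71 members, and without it 44 members had a positive change, with a median of 0.09.

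**Figure D1:**
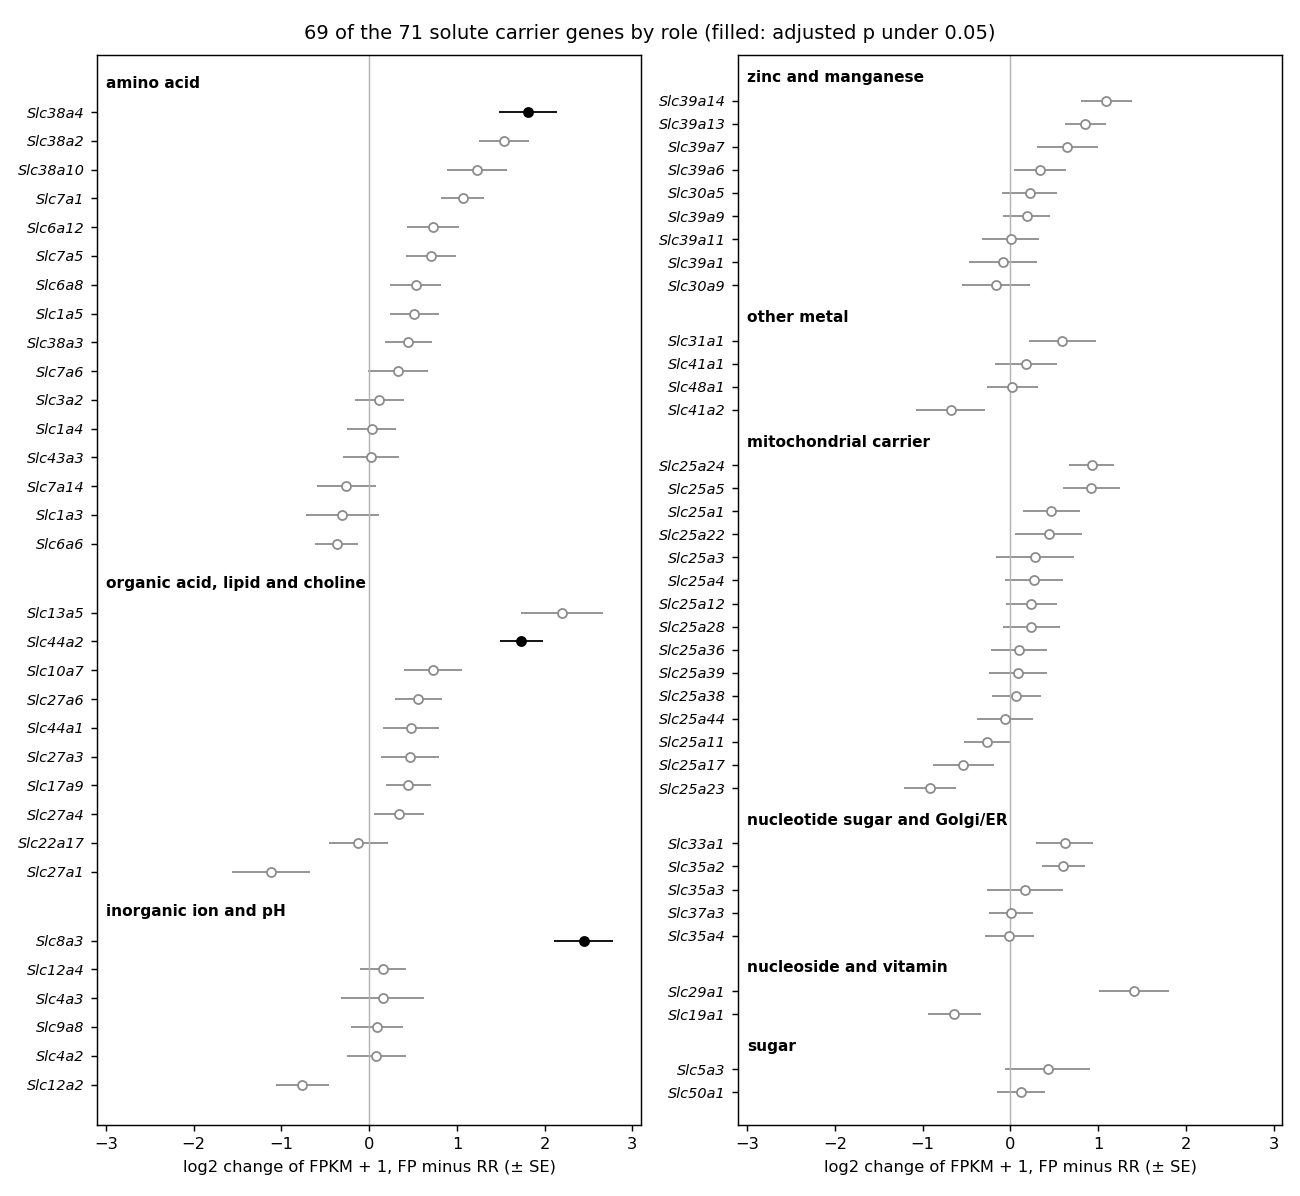
Log2 change of FPKM + 1, FP minus RR, for 69 of the 71 solute carrier genes, grouped by what their family carries. Points are limma estimates from 3 libraries per group, bars are ± SE, and filled points mark Slc8a3, Slc44a2 and Slc38a4, past the threshold and to the right of 0.

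Slc8a3 had the largest change on the log2 scale among the members. It encodes NCX3, which uses the sodium gradient to move calcium across the plasma membrane and is best known from brain and skeletal muscle. Its level was 66.2, 33.7 and 45.2 FPKM in FP 11, FP 14 and FP 16, against 10.4, 5.40 and 8.23 FPKM in RR 11, RR 14 and RR 16. The groups did not overlap, and the lowest FP library was more than 3 times the highest RR library. In limma the log2 change was 2.44 ± 0.34 (SE, adjusted p = 0.0160). The call was lost without FP 16, RR 14 or RR 16 (adjusted p = 0.0851, 0.0579 and 0.0633). Within each group the summed muscle markers given above ranked the libraries in the same order as Slc8a3 did, 11 above 16 above 14. These sums were 289, 285 and 164 FPKM in FP 11, FP 16 and FP 14, against 268, 51.3 and 38.9 FPKM in RR 11, RR 16 and RR 14. In RR 11 Slc8a3 was at 10.4 FPKM. The part of muscle RNA in the level of Slc8a3 was not tested. The other genes of the family were low: Slc8a1, the exchanger of heart muscle, was at 2.99, 0.871 and 0.748 FPKM in FP, against 2.42, 2.46 and 1.75 in RR, and Slc8a2 was at 2.50 FPKM or less in every library. On mm10, Slc8a3 lies on chromosome 12 (81197915 to 81333180, minus strand), and no exon of another gene overlaps its exons in GENCODE M21.

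Slc44a2 encodes CTL2, a member of the choline transporter-like family found at the plasma membrane and in mitochondria. Its level was 62.7, 44.6 and 49.1 FPKM in FP 11, FP 14 and FP 16, against 14.9, 15.1 and 14.5 FPKM in RR 11, RR 14 and RR 16. The 3 RR values lay close together and every FP value was well above them. The log2 change was 1.73 ± 0.25 (limma adjusted p = 0.0186). The call did not hold in any of the 6 fits without 1 library (adjusted p = 0.0565 to 0.119), although the log2 change stayed between 1.60 and 1.84. Slc44a1, the better known choline transporter of the family, was at 48.2 ± 15.5 FPKM in FP, against 33.2 ± 5.52 in RR (SD, n = 3 each; limma adjusted p = 0.707). FP 11, at 30.4 FPKM, lay within the RR range of 29.1 to 39.5 FPKM for Slc44a1. The remaining 3 genes of the family were at 1.24 FPKM or less in every library. Slc44a2 lies on chromosome 9 (21320698 to 21355028, plus strand).

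Slc38a4 and Slc38a2 are next to each other on chromosome 15, with no other protein-coding gene between them in GENCODE M21, and both encode sodium-coupled carriers of small neutral amino acids (system A). Slc38a4, which encodes SNAT4 and is imprinted in the mouse, was at 17.2, 8.35 and 8.18 FPKM in FP 11, FP 14 and FP 16, against 2.73, 1.86 and 2.36 FPKM in RR 11, RR 14 and RR 16. It reached the mean of 5 FPKM through the FP libraries alone. The groups did not overlap, with FP 11 the highest of the FP libraries. Its log2 change was 1.81 ± 0.33 (limma adjusted p = 0.0484), close to the threshold. Leaving out any 1 of the 6 libraries ended the call (adjusted p = 0.0908 to 0.183), and so did a pseudocount of 5 (0.0850), quantile scaling (0.0583) and switching the intensity trend off (0.0841).

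Slc38a2, which encodes SNAT2, a carrier induced when cells lack amino acids or shrink, was among the most abundant members. Its level was 108, 86.9 and 80.8 FPKM in FP 11, FP 14 and FP 16, against 38.5, 22.7 and 33.4 FPKM in RR 11, RR 14 and RR 16. The lowest FP library was above 2 times the highest RR library. With a log2 change of 1.53 ± 0.29 it missed the threshold (limma adjusted p = 0.0549). It passed when genes under a mean of 5 FPKM were dropped (0.0407), with a pseudocount of 0.1 (0.0495) and with library weights (0.0458). It also passed with library number in the fit as a fixed or a random block (0.0215 and 0.00963). Slc38a1, the third system A gene and the other neighbour of Slc38a2, was low in both groups, at 1.38, 3.39 and 1.85 FPKM in FP, against 1.499, 2.04 and 0.832 FPKM in RR.

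The promoters of the genes that rose, and of the neighbour Slc38a2, are shown because members that move together may be compared in their start regions. Each window runs 5′ to 3′ on the gene's strand, around an annotated start, taken from RefSeq on GRCm38.p6. A window was given for 55 of the 71 members. Capitals mark matches, on either strand, to 4 short motifs: the GC box GGGCGG, the TATA box TATAAA, the SOX core ACAAAG and the RUNX core ACCACA. No match overlaps another in these windows.
Slc8a3, chr12:81333131-81333430, minus strand: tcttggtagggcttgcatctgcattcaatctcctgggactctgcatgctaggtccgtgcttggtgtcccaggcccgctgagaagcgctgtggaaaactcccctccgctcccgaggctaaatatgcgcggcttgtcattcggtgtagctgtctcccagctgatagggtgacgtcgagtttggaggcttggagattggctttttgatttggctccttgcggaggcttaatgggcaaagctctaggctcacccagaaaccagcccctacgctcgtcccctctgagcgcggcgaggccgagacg
Slc44a2, first start, chr9:21320469-21320768, plus strand: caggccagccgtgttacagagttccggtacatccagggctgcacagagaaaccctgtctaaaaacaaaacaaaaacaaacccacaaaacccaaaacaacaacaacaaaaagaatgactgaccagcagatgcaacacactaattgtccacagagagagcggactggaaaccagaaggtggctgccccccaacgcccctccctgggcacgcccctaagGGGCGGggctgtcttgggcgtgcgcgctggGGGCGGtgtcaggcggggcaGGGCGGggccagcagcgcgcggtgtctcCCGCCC
Slc44a2, second start, chr9:21337578-21337877, plus strand: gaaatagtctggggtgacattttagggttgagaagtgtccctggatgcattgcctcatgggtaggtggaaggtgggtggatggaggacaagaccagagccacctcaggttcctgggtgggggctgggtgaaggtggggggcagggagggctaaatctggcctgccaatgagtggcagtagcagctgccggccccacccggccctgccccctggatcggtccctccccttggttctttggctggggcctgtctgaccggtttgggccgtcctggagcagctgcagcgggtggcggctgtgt
Slc38a4, first start, chr15:97055907-97056206, minus strand: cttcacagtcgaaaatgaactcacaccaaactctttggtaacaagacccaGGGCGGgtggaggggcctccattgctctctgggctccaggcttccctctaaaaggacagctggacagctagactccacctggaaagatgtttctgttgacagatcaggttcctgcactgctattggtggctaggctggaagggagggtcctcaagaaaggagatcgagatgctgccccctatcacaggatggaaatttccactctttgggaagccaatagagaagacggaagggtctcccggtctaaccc
Slc38a2, chr15:96699679-96699978, minus strand: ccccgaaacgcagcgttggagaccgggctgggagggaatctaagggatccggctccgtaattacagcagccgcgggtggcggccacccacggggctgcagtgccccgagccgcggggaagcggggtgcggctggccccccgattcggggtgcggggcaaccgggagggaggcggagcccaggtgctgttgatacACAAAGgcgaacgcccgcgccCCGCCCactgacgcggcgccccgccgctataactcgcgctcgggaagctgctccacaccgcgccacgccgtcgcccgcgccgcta
The Slc8a3 window and the second Slc44a2 window held none of the 4 motifs, the first Slc44a2 window held 4 GC boxes, the first Slc38a4 window 1, and the Slc38a2 window 1 GC box and 1 SOX core. Slc38a4 has 3 windows in the table, and the 2 not printed held a GC box and a TATA box in the second and a SOX core in the third. A GC box was in 70.7% of the 82 windows of members, in 65.9% of the windows of listed genes of mean 5 or more, and in 35.7% of all 32851 windows. A SOX core was in 10.98%, 13.1% and 18.7% of the same sets, a RUNX core in 8.54%, 11.5% and 16.8%, and a TATA box in 3.66%, 6.61% and 13.6%. The FPKM values do not separate the starts of a gene. A match is a description of letters and not a binding site.

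**Figure D2:**
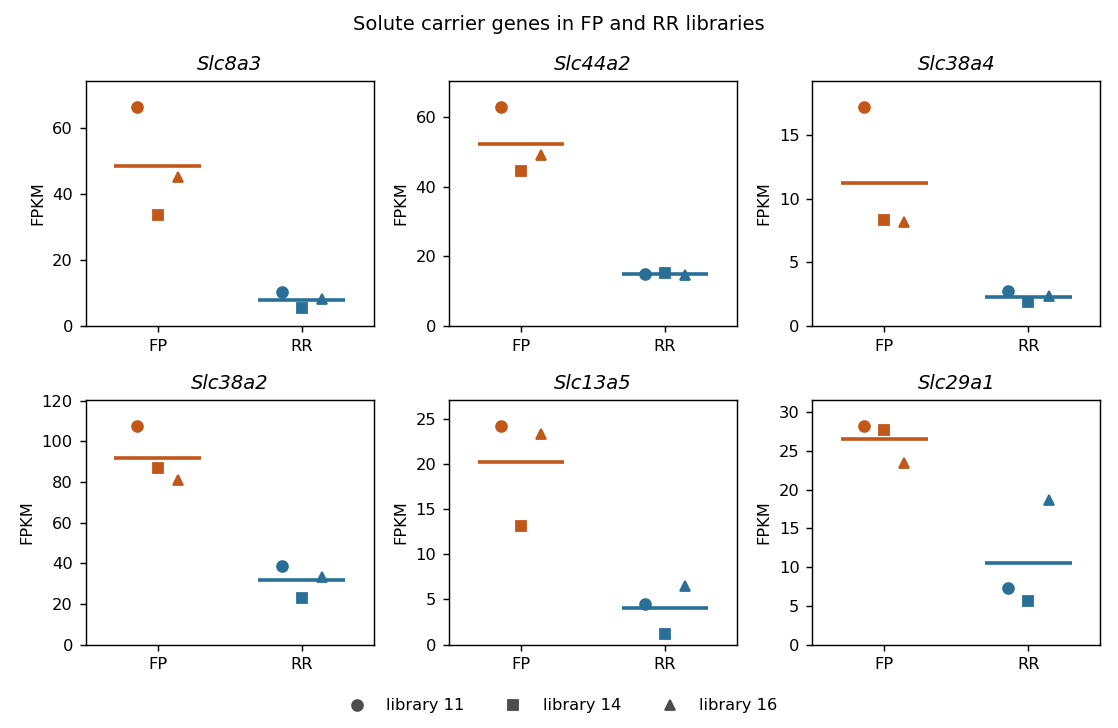
FPKM of 6 solute carrier genes in each library, with FP at the left and RR at the right of each panel and library numbers shown by marker shape. Horizontal lines are means of 3 libraries, and for each of the 6 genes every FP library lies above every RR library.

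Amino acid carriers made up 16 of the 71 members, with a median log2 change of 0.48. In FP 1 (6.25%), Slc38a4, was called higher and 0 lower, against 0.554% and 0.412% of all tested genes. In 6 of the 16 (37.5%) every FP library was above every RR library, and in 1 (6.25%) every FP library was below. These shares were 8.74% and 7.28% over all tested genes, and 13.6% and 5.63% among those of mean 5 or more. Slc7a1, which encodes the arginine and lysine carrier CAT1, was at 13.3, 12.02 and 11.3 FPKM in FP libraries, against 4.65, 5.06 and 6.28 FPKM in RR libraries. The groups were separate, but the log2 change of 1.07 ± 0.25 did not pass (limma adjusted p = 0.123). Slc38a10, of a less studied SLC38 protein, was at 49.1, 90.3 and 77.5 FPKM in FP, against 21.6, 28.6 and 40.7 FPKM in RR (limma adjusted p = 0.206), and an exon of the unlisted Gm11769 overlaps it on the opposite strand. Slc7a5 encodes LAT1, the large neutral amino acid carrier, and was at 9.27 ± 1.27 FPKM in FP, against 5.41 ± 1.67 in RR (SD, n = 3 each; limma adjusted p = 0.441). Its heavy chain gene Slc3a2 was at 18.7 ± 0.917 FPKM in FP, against 17.6 ± 4.88 in RR (SD, n = 3 each; limma adjusted p = 0.948), and the sign of its change turned after quantile normalization and without RR 14. Slc1a5, of the glutamine carrier ASCT2, was at 10.2 ± 2.41 FPKM in FP, against 6.79 ± 1.19 in RR. Slc6a6, of the taurine carrier, was the member of this group with all FP libraries below RR, at 20.3, 22.7 and 18.98 FPKM in FP, against 23.3, 26.5 and 31.7 FPKM in RR (adjusted p = 0.708).

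Genes that answer to amino acid shortage were set beside the carriers. Of 17 tested genes of this response, 0 were called in either direction, with a median log2 change of 0.29. An unadjusted p under 0.05 was reached by 5 (29.4%), against 10.3% of all tested genes. In 4 (23.5%), Shmt2, Psat1, Gpt2 and Aldh1l2, every FP library was above every RR library, against 8.74% of all tested genes. In 1 (5.88%), Cebpb, every FP library was below, against 7.28%. Atf4, the transcription factor of the response, was at 117, 105 and 138 FPKM in FP libraries, against 64.0, 58.3 and 112 FPKM in RR libraries. RR 16 lay within the FP range. Asns, the asparagine synthetase gene and a usual target of the factor, was at 7.08, 2.39 and 4.08 FPKM in FP, against 4.27, 4.02 and 4.01 FPKM in RR.

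Carriers of organic acids, lipids and choline numbered 11, with a median of 0.47. In FP 1 (9.09%), Slc44a2, was called higher and 1 (9.09%) lower, against 0.554% and 0.412% of all tested genes. Of the 11, 4 (36.4%) had an unadjusted p under 0.05, against 10.3% of all tested genes and 13.6% of those of mean 5 or more. In 5 (45.5%) every FP library was above every RR library, and in 1 (9.09%) every FP library was below. Over all tested genes these shares were 8.74% and 7.28%, and among those of mean 5 or more 13.6% and 5.63%. Slc13a5, of the sodium-coupled citrate carrier of the plasma membrane, was at 24.3, 13.1 and 23.4 FPKM in FP libraries, against 4.46, 1.22 and 6.47 FPKM in RR libraries. The groups were separate, with RR 14 lowest, and the log2 change of 2.197 ± 0.46 missed the threshold (limma adjusted p = 0.0881). It reached the mean of 5 FPKM through the FP libraries alone, and an exon of 1700051A21Rik overlaps it on the opposite strand. Slc10a7, of a Golgi and plasma membrane protein whose loss causes a human skeletal dysplasia, was at 8.998, 5.86 and 6.89 FPKM in FP, against 4.65, 2.25 and 5.52 FPKM in RR (adjusted p = 0.514). Of the fatty acid transport genes, Slc27a1 was at 5.98 ± 3.45 FPKM in FP, against 13.1 ± 4.10 in RR (SD, n = 3 each; limma adjusted p = 0.436). Slc27a3, Slc27a4 and Slc27a6 had positive changes of 0.47, 0.34 and 0.56 on the log2 scale and adjusted p of 0.544 or more.

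Zinc carriers numbered 9, with 0 called and a median of 0.22. An unadjusted p under 0.05 was reached by 2 (22.2%), against 10.3% of all tested genes and 13.6% of those of mean 5 or more. Slc39a7, of the zinc carrier ZIP7 of the endoplasmic reticulum, had the highest mean of all 71 members, at 73.8, 109 and 129 FPKM in FP, against 47.1, 60.2 and 93.0 FPKM in RR. The groups overlapped, since RR 16 was above FP 11 (limma adjusted p = 0.613). Slc39a14 encodes ZIP14, a zinc, iron and manganese importer whose loss shortens the skeleton in mice. It was at 33.3, 27.4 and 26.6 FPKM in FP, against 15.5, 9.03 and 15.7 FPKM in RR (adjusted p = 0.187). Slc39a13 encodes ZIP13, mutated in a human connective tissue disorder with short stature, and was at 28.5, 33.8 and 28.7 FPKM in FP, against 16.3, 15.5 and 17.1 FPKM in RR (adjusted p = 0.204). Both had separate groups and neither passed, and exons of Psmc3 overlap Slc39a13 on the opposite strand. Slc39a6 (0.34), Slc30a5 (0.22), Slc39a9 (0.19), Slc39a11 (0.00), Slc39a1 (-0.08) and Slc30a9 (-0.16) had log2 changes close to 0. The metallothionein genes Mt1 and Mt2, which bind zinc in the cytosol, were at 3.94 to 18.3 and 0 to 3.90 FPKM in FP, against 9.41 to 11.1 and 0 to 1.98 FPKM in RR. Of the 4 genes of zinc homeostasis tested, 0 were called and 0 had an unadjusted p under 0.05. Among the 4 carriers of other metals, 0 were called and 0 had an unadjusted p under 0.05. Slc31a1, the copper importer gene, stood at 0.59 ± 0.38 and the magnesium carrier gene Slc41a2 at -0.68 ± 0.40 on the log2 scale.

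Ion carriers numbered 7, of which Slc8a3 alone was called, higher in FP. That is 14.3%, against 0.554% of all tested genes called higher. The other ion carriers lay between -0.76 and 0.16 on the log2 scale. Slc12a2 encodes NKCC1, which brings sodium, potassium and chloride into the cell, and was at 7.04, 4.35 and 4.72 FPKM in FP, against 12.6, 7.09 and 9.87 FPKM in RR. Each FP library was below each RR library by a small margin, and the change did not pass (limma adjusted p = 0.426). Slc12a4, of the exporter KCC1, was at 25.6 ± 1.54 FPKM in FP, against 23.2 ± 5.38 in RR (SD, n = 3 each; limma adjusted p = 0.906). The proton exchanger gene Slc9a8 and the bicarbonate carrier genes Slc4a2 and Slc4a3 stood at 0.09, 0.08 and 0.15 on the log2 scale. The kinase pathway that acts on these chloride carriers was measured beside them. Wnk4 was at 35.1, 88.4 and 54.5 FPKM in FP, against 12.2, 17.98 and 28.6 FPKM in RR, Stk39 at 40.3, 40.01 and 45.1 in FP, against 22.6, 23.1 and 31.4 in RR, and Cab39 at 28.5, 30.7 and 27.6 in FP, against 10.1, 13.6 and 12.5 in RR. All 3 had separate groups and did not pass (limma adjusted p = 0.193, 0.372 and 0.0737). The other listed kinase genes of the pathway, Wnk1, Wnk2 and Oxsr1, had overlapping groups. They stood at -0.01, -0.46 and 0.07 on the log2 scale. Of 15 accessory subunit and kinase genes, 0 were called, with a median of 0.02. An unadjusted p under 0.05 was reached by 3 of them (20%), against 10.3% of all tested genes.

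Mitochondrial carrier family genes were 15 of the members, with 0 called and a median of 0.24. An unadjusted p under 0.05 was reached by 3 (20%), against 10.3% of all tested genes and 13.6% of those of mean 5 or more. Slc25a4 and Slc25a5 encode the adenine nucleotide translocators ANT1 and ANT2, which exchange ADP and ATP. Slc25a5 was at 54.8, 28.5 and 40.2 FPKM in FP, against 18.3, 17.1 and 27.6 FPKM in RR (limma adjusted p = 0.348). Slc25a4, the form of muscle and heart, was at 88.0, 48.1 and 59.3 FPKM in FP, against 61.7, 37.8 and 61.3 FPKM in RR (adjusted p = 0.860). Copies of Slc25a5 elsewhere in the genome resemble it closely, and how shared reads were assigned is not given. The 2 calcium-regulated carriers of ATP and phosphate lay on opposite sides of 0: Slc25a24 was at 11.7, 13.2 and 11.3 FPKM in FP, against 5.40, 5.03 and 7.42 FPKM in RR, and Slc25a23 at 4.16, 2.32 and 3.82 FPKM in FP, against 5.99, 6.59 and 9.46 FPKM in RR. Both had separate groups and neither passed (adjusted p = 0.204 and 0.295). The other 11 had log2 changes between -0.54 for Slc25a17, a carrier of peroxisomes, and 0.47 for Slc25a1, the mitochondrial citrate carrier.

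The remaining 9 members carry nucleotide sugars, nucleosides, vitamins and sugars, and 0 were called. Slc29a1, of the nucleoside carrier ENT1, whose loss leads to ectopic mineralization of spinal tissues in mice, was at 28.3, 27.8 and 23.5 FPKM in FP, against 7.33, 5.66 and 18.7 FPKM in RR. The groups were separate, with RR 16 closest to FP (limma log2 change 1.41 ± 0.40, adjusted p = 0.218). It passed without RR 16 (adjusted p = 0.0446). Slc19a1, of the reduced folate carrier, was at 5.16, 2.77 and 5.88 FPKM in FP, against 6.49, 8.07 and 7.92 FPKM in RR (adjusted p = 0.535). Slc35a2 carries UDP-galactose into the Golgi and was at 8.32, 8.41 and 8.89 FPKM in FP, against 6.16, 4.59 and 5.18 FPKM in RR (adjusted p = 0.437). Slc35a3, of the UDP-N-acetylglucosamine carrier, was at 14.2, 3.95 and 6.13 FPKM in FP, against 8.80, 6.28 and 4.36 FPKM in RR. Slc33a1, the acetyl-CoA carrier of the endoplasmic reticulum, stood at 0.62 ± 0.32 on the log2 scale. Slc5a3, the myo-inositol carrier, varied most among FP libraries, at 27.1, 8.08 and 10.1 FPKM, against 15.03, 5.58 and 10.003 FPKM in RR, and same-strand exons of Mrps6 overlap it.

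The family plot sets the 3 genes that rose beside their relatives. In the SLC8 family, Slc8a3 was the 1 member among 3 listed genes. In the SLC44 family 2 of 5 listed genes were members, and in the SLC38 family 4 of 11. The SLC38 genes under the mean of 5 FPKM were at most at 3.99 FPKM in any library.

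**Figure D3:**
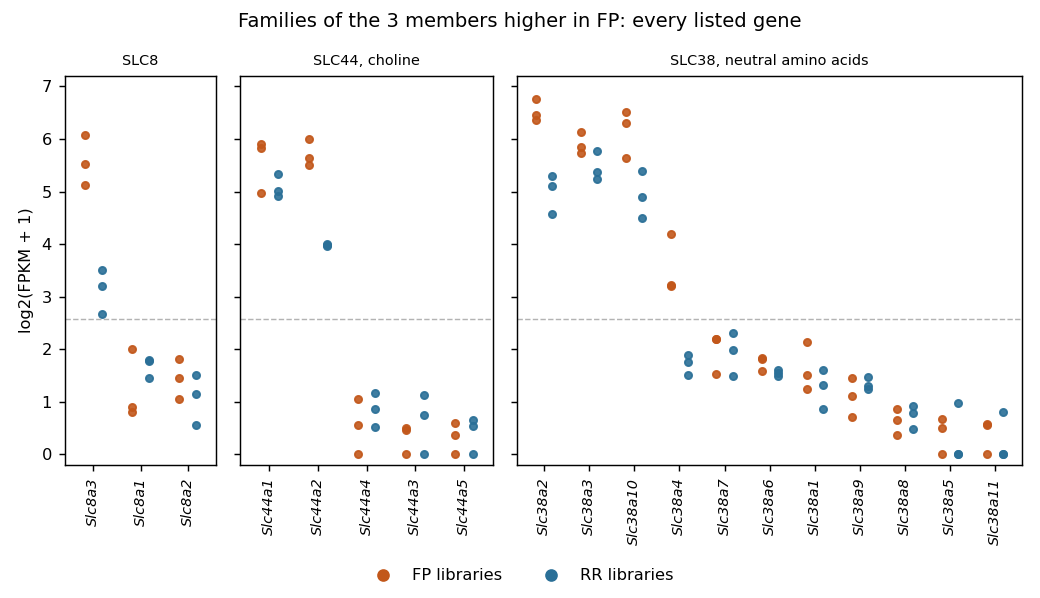
Level as log2(FPKM + 1) of every listed gene of the SLC8, SLC44 and SLC38 families, ordered by mean within a family, with each FP library as a point at the left and each RR library at the right of a gene's position. The dashed line is 5 FPKM, and in the SLC8 family Slc8a3 lies above it in all 6 libraries while Slc8a1 and Slc8a2 lie below.

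By level, the members ran from a mean of 5.29 to 85.3 FPKM over the 6 libraries. A total of 40 had a mean under 10 FPKM and 17 a mean of at least 20 FPKM. After Slc39a7, the highest means were those of Slc38a2 (61.6), Slc25a4 (59.3), Slc38a3 (51.4), Slc38a10 (51.3), Slc44a1 (40.7), Slc44a2 (33.5), Slc25a5 (31.1), Slc8a3 (28.2) and Slc43a3 (26.8 FPKM). Neighbours in this order differed by less than the SD of the higher gene over the 6 libraries. Slc38a3, of the glutamine carrier SNAT3, was at 52.3, 69.0 and 56.3 FPKM in FP, against 40.4, 36.5 and 53.7 FPKM in RR, and Slc43a3, of a purine nucleobase carrier, at 33.7, 20.6 and 26.3 FPKM in FP, against 31.9, 18.02 and 30.3 FPKM in RR. By group mean, Slc38a2 stood at rank 2 in FP and rank 5 in RR, and Slc8a3 at rank 7 in FP and rank 37 in RR. All 71 members were above 0 in every library, and 36 were at 5 FPKM or more in each. Their mean reached 5 FPKM in both groups for 58, in FP alone for 9 and in RR alone for 4. The coefficient of variation among 3 libraries had a median of 22.1% in FP and 28.2% in RR.

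**Figure D4:**
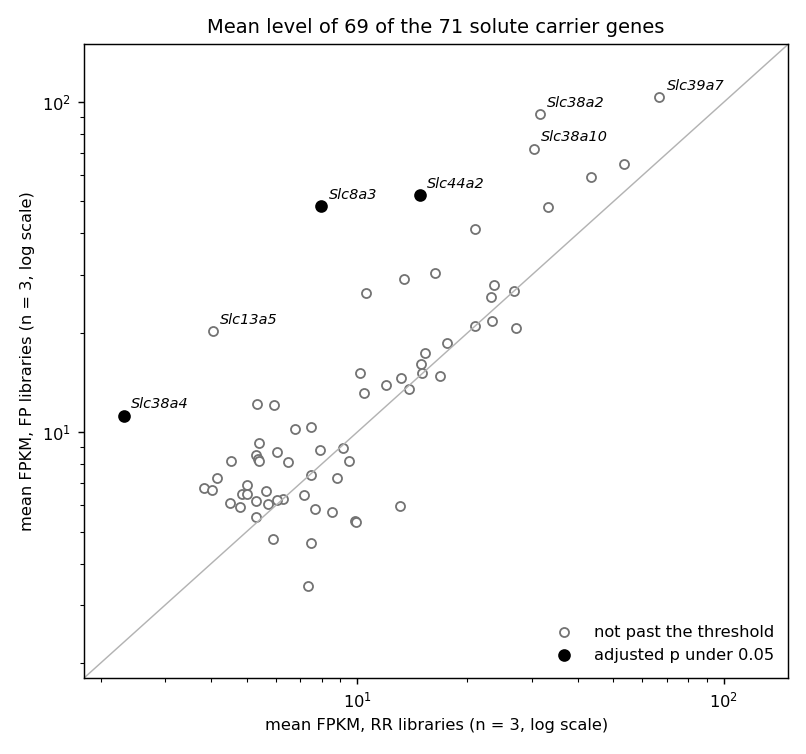
Mean FPKM of 69 of the 71 solute carrier genes in FP libraries (y axis) against RR libraries (x axis), both on log scales, 3 libraries each. The line marks equal means, filled points are Slc8a3, Slc44a2 and Slc38a4, past the threshold, and Slc39a7 lies at the upper end in both groups.

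Just inside the level rule stood Slc33a1, Slc7a6 and Slc1a3, with means of 5.29, 5.32 and 5.32 FPKM, and Slc12a7 and Slc25a51 lay close below it, with 4.82 and 4.81 FPKM. Of the 122 tested solute carriers that the rule left below its mean, 1 was called. This was Slc25a35, an orphan carrier named here after its values were seen, at 1.13, 0 and 0.412 FPKM in FP, against 14.7, 4.92 and 6.198 FPKM in RR. Positive changes were 44.3% of these 122, against 77.5% of the members. Over genes in general this share also differed, at 51.6% of all tested genes and 64.9% of those with a mean of at least 5 FPKM. Both sets include the members, and the second set is part of the first.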

How the data were processed

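The authors deposited 1 table of FPKM per library, in which every gene has 1 value. The tools, per the submitters' processing notes, were Cuffdiff 2.2.1, SAMtools 0.1.18, TopHat2 2.1.1 and Bowtie2 2.2.8, and the build was mm10. The sources used here do not state the annotation, the order of the tools, any rescaling of libraries or whether strand was counted. RNA was prepared with a stranded total RNA kit for low input, per the labels' protocols. FPKM are not counts, so no count model was used. Depth was estimated from the steps of low FPKM values of 3524 genes with 1 transcript of 1500 to 3000 bp. Of these low values 70.5% to 74.0% were whole fragments within 0.1, so whole reads were not recovered. By chance 20% would be whole for a step fixed in advance. Here the step was chosen in each library for the largest excess of whole values, so the 2 shares are not a test.

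The test was limma's moderated test (limma 3.58.1, R 4.3.3, eBayes with an intensity trend) on log2(FPKM + 1). It covered 14789 genes whose mean reached 1 FPKM. Tests were two-sided, FP minus RR, with Benjamini-Hochberg adjustment over all tested genes and a threshold of 0.05. The procedure was tested on simulated data. Fold changes are ratios of mean FPKM. Alternatives were other filters, pseudocounts of 0.1 and 5, quantile and median-of-ratios scaling, no trend, library weights, a replicate block and leaving out each library. Gene positions and overlaps came from GENCODE M21, and figures were drawn with Python 3.11.15.

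Named genes were the called members, the 10 smallest p in each direction among the others, the 10 highest means, the 3 symbols on either side of the level rule, a fixed panel and the 4 smallest p of each role group. Other members are given as values within their role group and were chosen after their values were seen. The members and lists were chosen with earlier results of these data known. Some genes that this rule names are not reported here and are not drawn, though counts and medians include them.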

Additional observations from a re-analysis of the deposited data

How the results depend on the processing

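The calls were sensitive to the setting while the directions of the 4 called genes were kept in all 17 alternatives. Against 3 members higher, 1 lower and 143 genes called in all, the fit with no filter gave 0, 0 and 17, and all 143 calls became 83 without an intensity trend. Leaving out 1 library gave 0 to 1 members higher, 0 to 1 lower and 42 to 85 genes in all, the lowest without FP 16. Leaving out both libraries numbered 14, an alternative chosen after seeing the data, gave 0, 0 and 8. The cause was not tested. Libraries with the same number deviated together with r = 0.319, 0.185 and 0.0890 over all tested genes, and with r = 0.751, 0.460 and 0.207 over the members alone. The third value over all tested genes is under 0.1, so the main fit did not take the numbers as pairs, although each occurs in both groups. The main counts of 3 higher and 1 lower thus rest on a fit without pairing. A fit with library number as a random effect put the correlation of same-numbered libraries at 0.364. Over all tested genes every FP library nevertheless correlated best with the RR library of its own number. Over the members this did not hold for FP 16, with r = 0.244 to RR 14 and 0.207 to RR 16. With a replicate block as fixed term 6 members were higher and 271 genes were called, and with the block as a random effect 8 and 412. Slc38a2, Slc13a5 and Slc38a10 then passed in the fixed fit (limma adjusted p = 0.0215, 0.0140 and 0.0477), and Slc7a1 and Slc39a14 passed in addition with the random effect (0.0314 and 0.0461). Some uncalled members changed sign. With quantile normalization Slc25a4 stood at -0.019, Slc43a3 at -0.19, Slc4a2 at -0.074, Slc3a2 at -0.052, Slc12a4 at -0.037 and Slc4a3 at -0.0015, and with library weights Slc43a3 at -0.033. Without both libraries numbered 14, Slc7a14 stood at 0.019, Slc43a3 at -0.060, Slc3a2 at -0.16 and Slc48a1 at -0.20. Over the 6 fits without 1 library the log2 change ran from -0.23 to 0.19 for Slc43a3, -0.29 to 0.52 for Slc35a3, -0.068 to 0.75 for Slc5a3, -0.65 to 0.022 for Slc1a3, -0.26 to 0.58 for Slc4a3, -0.21 to 0.090 for Slc35a4 and -0.12 to 0.24 for Slc48a1. It ran from -0.061 to 0.29 for Slc50a1, -0.22 to 0.38 for Slc4a2, -0.12 to 0.51 for Slc41a1, -0.44 to 0.078 for Slc7a14, -0.12 to 0.26 for Slc3a2 and -0.047 to 0.36 for Slc30a5.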

Other observations

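Of the transporters that the level and name rule left out, Slc26a2, the sulfate carrier needed for proteoglycan, was at 63.9, 34.2 and 32.95 FPKM in FP 11, FP 14 and FP 16, against 21.9, 12.2 and 16.7 FPKM in RR 11, RR 14 and RR 16. Slc16a3, of the lactate exporter MCT4, was at 15.2, 19.9 and 19.3 FPKM in FP, against 5.94, 6.84 and 11.1 FPKM in RR. Both had separate groups and neither passed the threshold. Among genes of the amino acid response, Aldh1l2, of a mitochondrial folate enzyme, was at 12.4, 8.17 and 8.57 FPKM in FP, against 5.42, 3.75 and 3.84 FPKM in RR, and Cebpb, a transcription factor gene, at 1.75, 1.39 and 1.53 FPKM in FP, against 3.73, 6.49 and 6.46 FPKM in RR. Neither was past the threshold.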
